A study of Mus musculus with 8 samples.

Results

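The interferon-gamma inducible GTPases were followed in whole colon tissue of mice with acute graft-versus-host disease, a condition in which transplanted donor T cells attack the recipient. The set was defined by name and holds 10 genes: the guanylate-binding protein genes Gbp2, Gbp3, Gbp4, Gbp5, Gbp6 and Gbp7, and the immunity-related GTPase genes Irgm1, Irgm2, Igtp and Iigp1. Of these, 8 were measured, out of 19505 genes tested, and no probe set was named here for Gbp5 or Gbp6. The rule names the genes and uses no measured value, although the set was proposed with earlier results of these data known.

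All 8 mice were wild-type BALB/c recipients that received bone marrow and T cells from C57BL/6 donors on day 0 after lethal irradiation. The PBS group, 4 mice, received PBS by mouth from day 0 to day 7, and the hBD-2 group, 4 mice, received 1.2 mg/kg hBD-2 by the same route over the same days. hBD-2 is human beta-defensin 2, an antimicrobial peptide of epithelial surfaces. Colon was taken on day 7, and RNA of each mouse was measured on 1 Affymetrix array. Age and sex of the mice were not given in the labels. The comparison asks what oral hBD-2 did to expression in the diseased colon. Healthy mice and mice with a transplant but no disease were not among the arrays, so the levels below say nothing of induction by the disease. The tissue holds recipient and donor cells together, and in such bulk RNA fewer cells of a type and less RNA per cell cannot be told apart.

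Interferon-gamma, secreted by activated T cells and natural killer cells, binds a receptor that acts through the kinases Jak1 and Jak2. The transcription factor Irf1, which is induced in the response, helps to switch on the GTPases described here in almost every cell type, including intestinal epithelium. Guanylate-binding proteins and immunity-related GTPases then assemble on vacuoles that hold microbes and on bacteria in the cytosol, where they help to break the membranes and to expose microbial products to inflammasomes. Within the immunity-related GTPases, Irgm1, Irgm2 and Igtp (also called Irgm3) are regulators that keep effector GTPases such as Iigp1 (also called Irga6) inactive on the cell's own membranes.

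The start regions of the members are shown because each member with a listed promoter carried the same type of interferon-response sequence. Promoter windows of RefSeq genes in build GRCm38.p6 were found for 7 of the 10 members, 6 of them measured and Gbp5 not. None was found for Gbp4, Gbp6 or Iigp1, so their start regions are not described. The 250 bases before each transcription start were searched on both strands. The searched letters were GAAA, any 2 bases, GAAA, the core of the interferon-stimulated response element bound by Irf factors (on the opposite strand, TTTC, any 2 bases, TTTC), and TTC, any 3 bases, GAA, the gamma-activated site of interferon-gamma responsive genes, which reads alike on both strands. In the 6 stretches below, written 5′ to 3′ along the gene, capitals mark matches to either motif.
Gbp2, chr3:142620579-142620638, plus strand: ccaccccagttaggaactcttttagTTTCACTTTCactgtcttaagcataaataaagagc
Gbp3, chr3:142559974-142560039, plus strand: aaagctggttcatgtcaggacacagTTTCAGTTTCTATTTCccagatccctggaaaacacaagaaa
Gbp7, chr3:142530205-142530317, plus strand: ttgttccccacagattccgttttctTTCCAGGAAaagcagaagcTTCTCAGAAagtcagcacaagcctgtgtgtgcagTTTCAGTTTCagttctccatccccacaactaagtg
Irgm1, chr11:48871421-48871475, minus strand: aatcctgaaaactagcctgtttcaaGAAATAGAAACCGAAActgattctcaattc
Igtp, chr11:58199486-58199555, plus strand: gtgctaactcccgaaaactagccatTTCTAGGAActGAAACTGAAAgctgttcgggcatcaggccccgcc
Irgm2, chr11:58214877-58214947, plus strand: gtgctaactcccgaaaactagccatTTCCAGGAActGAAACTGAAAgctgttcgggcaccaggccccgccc

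Each of the 7 matched members held the response element core in a window. Counted by window, 7 of their 8 windows held it, the exception being a second start of Gbp3, against 2.98% of the 32851 promoter windows in the table. The gamma-activated site was present in 4 of the 8 windows (Gbp5, Gbp7, Igtp and Irgm2), against 7.02% of all windows. Of 7 related GTPase genes with a window, 4 held the response element core. Gbp3 and Irgm1 each held 2 overlapping copies of the response element core. In Igtp and Irgm2, which are neighbours on chromosome 11, the gamma-activated site lies just before the response element, and the first 70 bases of the printed stretches are identical at 68 positions. A match is a description of letters only. Among the 538 tested non-member genes with the response element core, the median difference was -0.0042 log2 units, against 0.013 in 15147 genes without it.

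None of the 8 members passed the test between the groups, while all 8 had a lower mean in the hBD-2 mice. Values are log2 expression as deposited, differences are hBD-2 minus PBS on that scale, and adjusted p-values come from limma with Benjamini-Hochberg adjustment over all 19505 genes, with a threshold of 0.05. The median difference of the members was -0.20, and that of all genes tested was 0.012. A negative difference was found in 46.5% of all genes. Adjusted p-values of the members ran from 0.267 for Iigp1 to 0.878 for Irgm1 in limma, and 8 genes, 0.0410% of those tested, passed. At an unadjusted p under 0.05 there were 4 members, Iigp1, Gbp4, Irgm2 and Gbp7, all lower, against 5.98% of all genes that were lower at that level. The groups did not overlap in 2 members, Iigp1 and Irgm2, against 3.60% of all genes with all hBD-2 mice below all PBS mice. These members vary together from mouse to mouse, as described below, so their counts are not counts of independent genes. With 4 arrays in each group, precision is limited throughout.

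Iigp1, the effector among the immunity-related GTPases of the set, had the lowest p. In PBS mice 1 to 4 it stood at 11.06, 11.02, 11.00 and 10.95 log2 units, and in hBD-2 mice 1 to 4 at 10.86, 10.54, 10.59 and 10.88. The groups did not overlap, and within the treated group mice 2 and 3 were lower than mice 1 and 4. The difference was -0.29 (SE 0.092, 95% interval -0.49 to -0.082, limma adjusted p = 0.267), so PBS mice were 1.22-fold higher.

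Among the 3 regulators the groups were separate in Irgm2 and overlapped in Igtp and Irgm1. Irgm2 stood at 9.92, 9.89, 9.95 and 9.85 in the PBS mice and at 9.73, 9.53, 9.81 and 9.77 in the hBD-2 mice. The groups were separate, with mouse hBD-2 2 well below the rest, and the difference was -0.19 (SE 0.079, limma adjusted p = 0.382). Igtp, its neighbour with the nearly identical start region, stood at 10.06, 10.15, 10.09 and 9.96 in PBS mice and at 10.04, 9.55, 10.02 and 9.91 in hBD-2 mice. Here the groups overlapped: hBD-2 mice 1 and 3 lay within the PBS range, and the difference of -0.19 (SE 0.11, limma adjusted p = 0.528) was -0.080 without mouse hBD-2 2.

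Irgm1, the regulator whose loss in mice causes the broadest defect of immunity among these genes, showed the smallest difference of the set. It stood at 11.28, 11.34, 11.28 and 11.21 in PBS mice and at 11.33, 11.15, 11.28 and 11.21 in hBD-2 mice. The groups overlapped almost fully, with a difference of -0.035 (95% interval -0.19 to 0.12, limma adjusted p = 0.878) that was -0.0030 without mouse hBD-2 2. The interval still allows a decrease of the size seen in Irgm2 or Igtp.

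**Figure D1:**
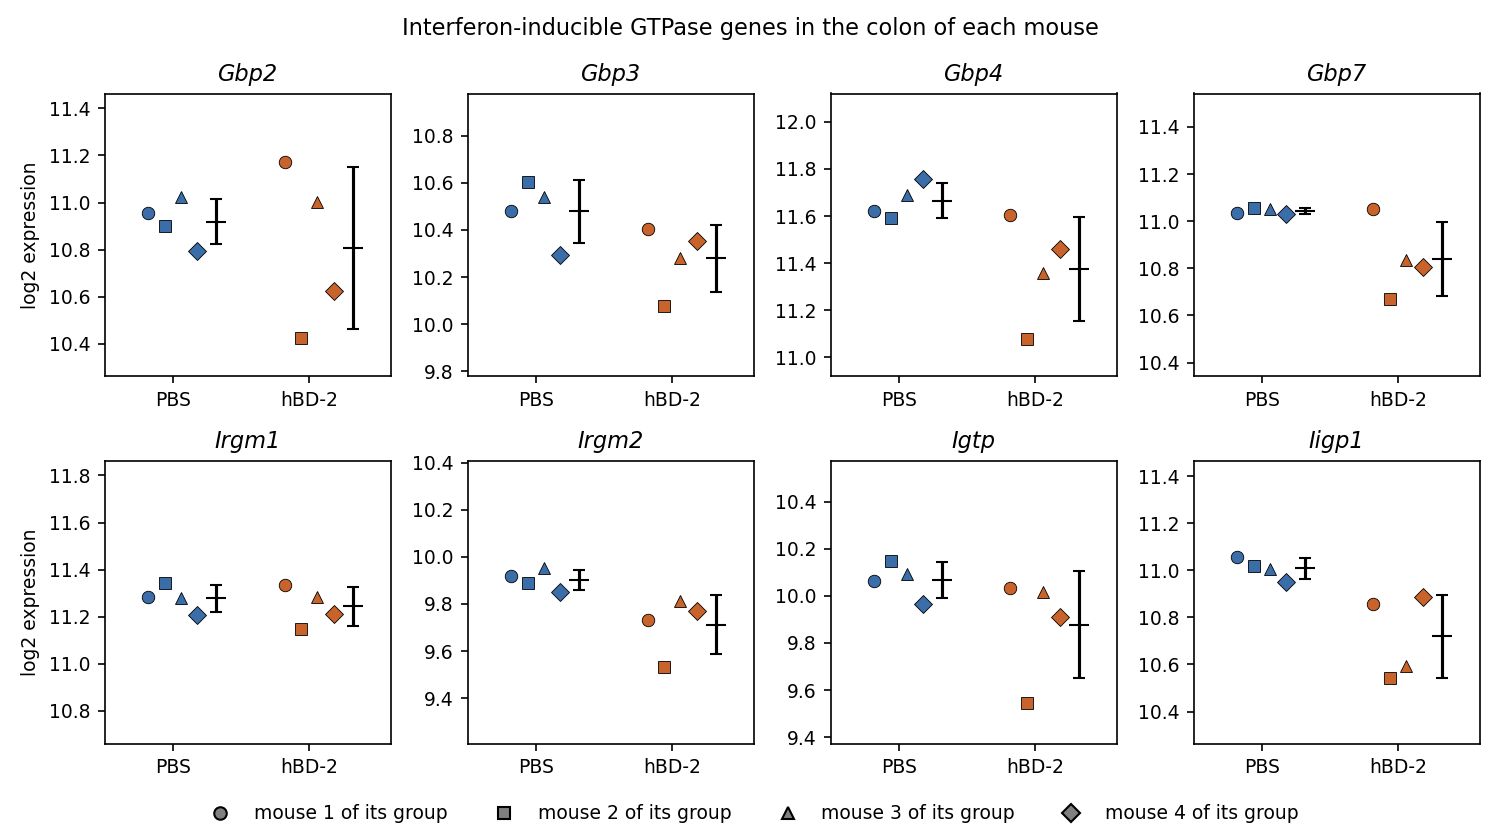
Log2 expression (vertical axis, spanning 1.2 log2 units in every panel) of the 8 measured members in each PBS mouse (blue) and hBD-2 mouse (orange), with symbols for the mice 1 to 4 of each group, which are not paired. Horizontal ticks with bars give the group mean and SD (n = 4); mouse hBD-2 2 (orange square) is the lowest of the 8 mice in every panel.

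Among the guanylate-binding proteins, Gbp4 had the largest difference. Gbp4 stood at 11.62, 11.59, 11.69 and 11.76 in PBS mice and at 11.61, 11.08, 11.36 and 11.46 in hBD-2 mice. Only mouse hBD-2 1 reached the PBS range. The difference was -0.29 (SE 0.11, 95% interval -0.53 to -0.048, limma adjusted p = 0.341).

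Gbp7, which has been linked to the delivery of oxidative and autophagic defences to microbes, was the steadiest member in the PBS group. The PBS mice stood at 11.03, 11.06, 11.05 and 11.03, an SD of 0.012, and 0.215% of the genes tested had a smaller one in that group. The hBD-2 mice stood at 11.05, 10.67, 10.83 and 10.81, an SD of 0.16. Mouse hBD-2 1 lay inside the narrow PBS range and the other 3 lay below it, with a difference of -0.20 (SE 0.086, limma adjusted p = 0.393).

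Gbp3 stood at 10.48, 10.61, 10.54 and 10.29 in PBS mice and at 10.40, 10.08, 10.28 and 10.35 in hBD-2 mice. It was the member with the largest PBS spread, with mouse PBS 4 the lowest of its group, and the groups overlapped. The difference was -0.20 (SE 0.097, limma adjusted p = 0.457).

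Gbp2, which coats vacuoles of Toxoplasma and takes part in caspase-11 activation, varied most among the treated mice. It stood at 10.95, 10.90, 11.02 and 10.80 in PBS mice, and at 11.17, 10.42, 11.00 and 10.63 in hBD-2 mice. The highest and the lowest of all 8 values were both in the hBD-2 group, where the SD was 0.34. The difference was -0.11 (95% interval -0.45 to 0.22, limma adjusted p = 0.801), and without mouse hBD-2 2 it was 0.015.

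**Figure D2:**
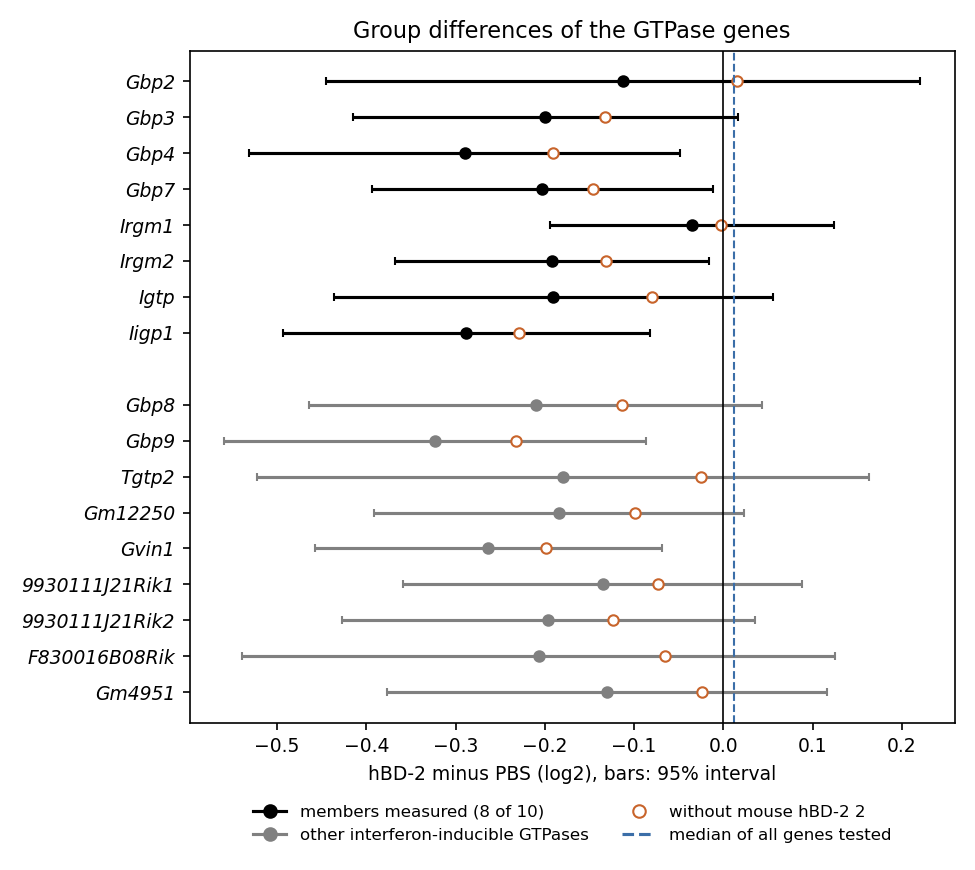
Difference of the group means, hBD-2 minus PBS in log2 units, with its 95% interval from limma, for the 8 measured members (black) and 9 other interferon-inducible GTPases (grey). Open orange circles give the difference without mouse hBD-2 2 and the dashed line the median of all genes (0.012); all 17 filled points lie below 0, and each open circle lies closer to 0 or just above it.

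Mouse hBD-2 2 was the lowest of the 8 mice in all 8 members. Over all genes tested this mouse was the lowest in 10.5%, the smallest share of the 8 mice. Relative to the mean of the other 3 hBD-2 mice, its level differed by -0.13 in Irgm1 to -0.51 in Gbp2. The mean of the 8 members, each taken relative to its own mean over all mice, was 0.10, 0.12, 0.13 and 0.031 in PBS mice 1 to 4. It was 0.073, -0.32, -0.053 and -0.074 in hBD-2 mice 1 to 4. On this scale the PBS mice lay close together, hBD-2 1 was among them, hBD-2 3 and 4 were slightly below and hBD-2 2 was far below. Without hBD-2 2 the median difference of the members was -0.13, 7 of 8 were still negative, and 1 member in place of 4 had an unadjusted p under 0.05. That count was 2 without PBS 1, PBS 2 or PBS 3 taken singly.

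The spread between mice was larger in the hBD-2 group than in the PBS group for all 8 members, a relation found in 56.6% of all genes. Members had a median SD of 0.065 among PBS mice and 0.17 among hBD-2 mice, while that of all genes was 0.125 and 0.139. All members were high in mean level, from percentile 90.5 of the genes tested (Irgm2) to 99.0 (Gbp4). Their spread was not compared with that of genes of like level, here or for Gbp7 above. The ratio of the SDs was lowest in Gbp3, at 1.06, and reached 3.97 in Iigp1 and 13.01 in Gbp7. Equality of the spreads was not tested.

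A principal component analysis of all genes set the pair hBD-2 1 and hBD-2 3 away from the remaining 6 arrays on its first axis (34.6% of the variance, 25.2 and 25.4 against -14.9 to -2.45). The 6 posterior body axis genes, a list of Hox genes, had a mean of 0.73 and 0.67 in these 2 arrays relative to each gene's mean, against -0.36 to -0.060 in the others. Genes of that list did not all share this pattern. In hBD-2 mice 1 to 4 Hoxd13 stood at 6.20, 4.09, 6.03 and 4.48, but Hoxd10 at 4.69, 5.93, 4.63 and 5.55. Hoxd12 did not set the pair apart, at 5.87, 5.86, 5.75 and 5.89. In the GTPases hBD-2 1 had the highest member mean of its group and hBD-2 3 came next. Without this pair the median difference of the members was -0.30, 6 of the 8 members had groups that did not overlap, and 6 had an unadjusted p under 0.05, but again none passed over all genes (lowest limma adjusted p = 0.205, for Gbp2). The count of members without overlap was also 4 in place of 2 when only PBS 4 or only hBD-2 1 was left out. Groups with fewer arrays separate more easily, and the share of all genes without overlap was not counted in these settings. Over all genes 2503 had an unadjusted p under 0.05 in limma without the pair. The pair held the 2 highest member means of the hBD-2 group, so leaving it out lowers that group's mean by itself. Markers of colon epithelium were high in every mouse, among them Slc26a3, the chloride and bicarbonate exchanger of colonocytes, at means of 11.63 in PBS and 11.97 in hBD-2 mice. The 7 small intestinal absorptive genes differed between mice: relative to each gene's mean, their mean was 0.43 in hBD-2 2 and 0.37 in hBD-2 4, the mice with the lowest member means. It was -0.38 in hBD-2 1, -0.40 in hBD-2 3 and -0.18 to 0.13 in PBS mice. Of these genes 6 were higher and 1 lower, none passed, and the median difference was 0.12. Their part in the GTPase values was not tested. Single genes of that list differed in pattern. Fabp6, an ileal bile acid binding protein, was at means of 4.11 in PBS and 4.35 in hBD-2 mice. In hBD-2 mice 1 to 4 it stood at 4.49, 4.18, 4.38 and 4.37, lowest in hBD-2 2. Lct, the lactase gene, stood at 6.05, 6.37, 5.57 and 6.20 in these mice and was highest of all in hBD-2 2. Apoa4, of the same list, stood at 6.74, 6.82, 6.77 and 7.05.

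The members varied together across the 8 mice. All 28 pairs of members had a positive Pearson r over the 8 mice, with a median of 0.81 and a range of 0.42 (Gbp2 and Iigp1) to 0.93 (Gbp4 and Gbp7). Without mouse hBD-2 2 the median r was 0.54, with a range of -0.15 to 0.84, and 26 pairs stayed positive. These are descriptions over few mice, and the values share arrays and normalization. Both families were lowest in hBD-2 2. Relative to each gene's mean, the mean of the 4 guanylate-binding proteins in hBD-2 mice 1 to 4 was 0.13, -0.36, -0.057 and -0.11. Mouse hBD-2 1 lay within the PBS range of 0.044 to 0.15 there. The mean of the 4 immunity-related GTPases was 0.013, -0.28, -0.049 and -0.033, all just or well below the PBS range of 0.017 to 0.12.

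Other interferon-inducible GTPases had their lowest value in the same mouse. Of 14 further interferon-inducible GTPase genes listed, 9 were measured, and mouse hBD-2 2 was again the lowest of the 8 mice in all 9. All 9 had a negative difference, with a median of -0.20, and none passed. Gbp9 was at -0.32 (SE 0.11, limma adjusted p = 0.276), Gvin1, a giant GTPase of the very large inducible class, at -0.26 (SE 0.088), and Gbp8 at -0.21. Gm12250, which encodes the effector Irgb10 that breaks bacterial membranes, was at -0.18 (SE 0.093). Tgtp2, a T cell GTPase that acts on parasite vacuoles, was at -0.18, and at -0.025 without hBD-2 2. The remaining 9930111J21Rik1, 9930111J21Rik2, F830016B08Rik and Gm4951 were at -0.14, -0.20, -0.21 and -0.13. Several of these genes have near-identical copies, and whether their probes tell the copies apart was not tested.

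None of the measured interferon-gamma signalling components passed the test. Ifng, the cytokine itself, stood at 6.31, 6.95, 6.62 and 6.56 in PBS mice and at 6.94, 6.55, 6.57 and 6.16 in hBD-2 mice. Mouse hBD-2 2, the lowest in all the GTPases, was not low in Ifng and lay near the middle of the PBS mice. Ifng varied widely within groups: its SD exceeded that of 92.5% of the genes tested in PBS mice and of 93.5% in hBD-2 mice. The value of a single mouse is thus imprecise. The difference in Ifng was -0.055 (95% interval -0.43 to 0.32, limma adjusted p = 0.922), an interval that includes a change larger than that of any member. The receptor chains Ifngr1 and Ifngr2 were at -0.049 and 0.093, and Jak2 at 0.0047. Jak1 was at -0.14 (SE 0.068, limma adjusted p = 0.460), with all hBD-2 mice below all PBS mice. Irf1 was at -0.051, and at 0.00083 without hBD-2 2, the mouse in which it was lowest (10.46, against 10.57 to 10.79 in the other 7). Of 17 listed components 15 were measured, 10 were lower and 5 higher, and the median was -0.049.

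Most of the remaining interferon-gamma targets were also lowest in that mouse. Of 24 measured target genes that are no GTPases, such as chemokines, immunoproteasome subunits and antigen transporters, 16 were lowest in hBD-2 2. The median difference was -0.028, with 16 lower and 8 higher and none past the threshold. Without hBD-2 2 the median difference was 0.042. Relative to each gene's mean, the list mean was -0.29 in hBD-2 2 and 0.19 in hBD-2 1, the highest of the 8 mice. Its Pearson r with the member mean was 0.81 over the 8 mice, and 0.35 without hBD-2 2. Cd274, which encodes the checkpoint ligand PD-L1, was at -0.34 (SE 0.097, limma adjusted p = 0.226) with groups that did not overlap. The adhesion molecule Icam1 was at -0.15 and the immunoproteasome subunit Psmb10 at 0.090. The chemokines Cxcl9 and Cxcl10, chosen after their values were seen, stood at 10.93 and 9.64 in hBD-2 2 against PBS means of 11.36 and 10.35, with group differences of -0.031 and -0.14. Of the 14 genes induced mainly by type I interferon, 0 were lowest in hBD-2 2, whose mean in that list was 0.16 relative to each gene's mean. In that list PBS 2 was highest, at 0.36. Its median difference was 0.010, none of its genes passed, and Ifit3, Bst2 and Oas2 had differences of -0.26, -0.19 and 0.24.

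Transcripts of proteins that work with the GTPases were examined too. In the ATG8 conjugation and ubiquitin list, which guides the GTPases to vacuoles, none of 13 genes passed, 8 were lower and 5 higher, and the median was -0.047. Gabarapl1, an ATG8 protein, stood at 8.94, 8.87, 8.85 and 8.81 in PBS mice and at 8.60, 8.60, 8.60 and 8.70 in hBD-2 mice. The groups were separate and the hBD-2 mice lay close together, with a difference of -0.24 (SE 0.066, limma adjusted p = 0.213). Gabarapl2 was at -0.13, and Trim21, an antibody receptor and ubiquitin ligase, at -0.35 and at -0.13 without hBD-2 2. Of the 10 inflammasome genes none passed and the median was 0.020. Il1b was 2.01-fold higher in PBS mice (limma adjusted p = 0.219), caspase-11 (Casp4) at -0.16 with its lowest value in hBD-2 2, and Gsdmd at 0.14.

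**Figure D3:**
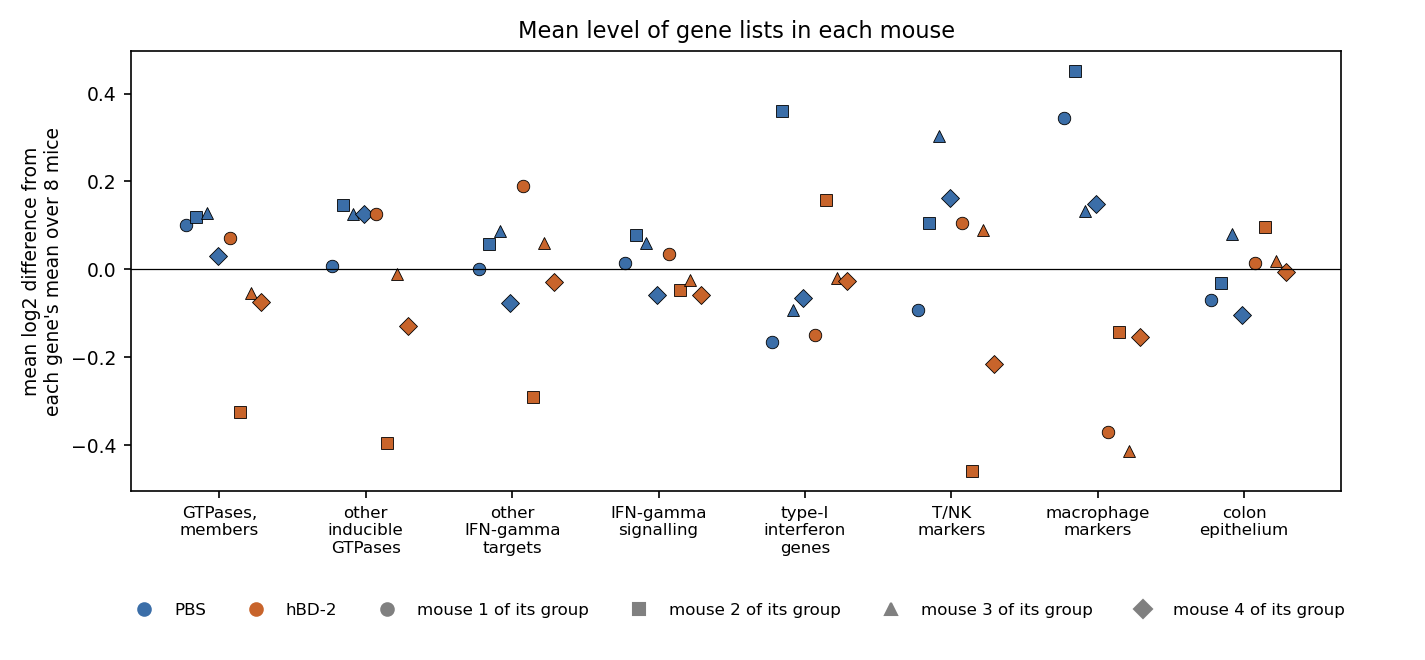
Mean of each gene list in each mouse, as the mean log2 difference of its genes from their own means over the 8 mice (vertical axis), for PBS mice (blue) and hBD-2 mice (orange), with symbols for mice 1 to 4 of a group. In the 8 members hBD-2 2 (orange square) is at -0.32, and it is likewise the lowest in the other GTPases, the other interferon-gamma targets and the T and NK markers (-0.46), but not in the macrophage markers (-0.14).

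Markers of other cells moved with these values to different degrees. The 12 measured T and natural killer cell markers were lowest in hBD-2 2 in 9 cases, and their mean relative to each gene's mean ranged from -0.093 to 0.30 in PBS and from -0.46 (hBD-2 2) to 0.11 in hBD-2 mice. None passed, 11 were lower, and the median was -0.27, with Cd4 at -0.61, Cd3d at -0.30 and Klrk1 at -0.29. Cd4 passed in limma with an intensity trend (adjusted p = 0.0160) and after a filter on the lowest 50% of values (adjusted p = 0.0420). Their mean had a Pearson r of 0.83 with the member mean over the 8 mice, and 0.53 without hBD-2 2. The 10 macrophage markers ranged from 0.13 to 0.45 in PBS and from -0.41 to -0.14 in hBD-2 mice, and hBD-2 2 was the highest hBD-2 mouse there. Of these, 1 passed, Aif1 (-0.96, limma adjusted p = 0.0467), and 9 did not, among them Mrc1 at -0.72 and C1qa at -0.66. Aif1 lost its call in 12 of 17 alternatives. It kept the call with an intensity trend and with array weights (limma adjusted p = 0.00504 and 0.0344), and the 50% filter left it out. Mrc1 and C1qa did not pass in the main setting or in most alternatives. They passed with an intensity trend, after that filter and with array weights (limma adjusted p from 0.00436 to 0.0420). Endothelial and fibroblast markers, 6 each, had medians of -0.39 and -0.51 with none past, and hBD-2 2 had the highest mean of the hBD-2 mice in both lists. The fibroblast genes Vim and Col3a1 passed in those same 3 alternatives (limma adjusted p from 0.00561 to 0.0420). The 11 colon epithelial markers had a median of 0.041 with none past. Pearson r with the member mean was 0.48, 0.24 and 0.30 over the 8 mice for macrophage, endothelial and fibroblast list means. Without hBD-2 2 it was 0.66, 0.73 and 0.69, each above that of the T and natural killer cell markers. For colon epithelium it was -0.48, and 0.042 without hBD-2 2. Log2 values of this kind have no zero, so absence of a marker cannot be read from them. The part of these cell types in the GTPase values was not tested.

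The genes outside the set whose pattern over the 8 mice was most like the member mean were Mapkbp1 (Pearson r 0.98), Bcl2a1d (0.97), Ccl6 (0.97), Gbp8 (0.96), Cd28 (0.96) and Atxn2l (0.95). Spearman's rho for these 6 lay between 0.88 and 0.98. All 6 were lowest in hBD-2 2. Without mice 2 and 4 of the hBD-2 group, the mice farthest from the median of the member mean, r was 0.92, 0.94, 0.87, 0.82, 0.68 and 0.94 in the same order. They were picked for this likeness out of all genes, so it is a description over 8 mice. Their differences were -0.20, -0.43, -0.20, -0.21, -0.36 and -0.071, and none passed.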

How the data were processed

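RNA from whole colon of 8 mice was measured on Affymetrix arrays, 1 per mouse. Groups and replicate numbers were taken from the sample titles. The deposited table holds log2 values for 22203 probe sets. The submitters' processing notes name oligo and RMA, with no version. RMA makes array distributions alike, so an overall shift between mice would not be visible (array medians 6.77 to 6.82). For the array design, a genome build was not given in the sources used.

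Through the platform annotation 19572 probe sets had 1 gene and 0 had several, and 2631 had no name here. For genes with several probe sets the one with the highest mean was kept, which left 19505 genes. Every member had 1 probe set. Groups were compared with limma 3.58.1 (lmFit and eBayes, R 4.3.3), two-sided, on the log2 values the authors deposited. The fit was also run on simulated data with independent genes and larger changes than those of the members. That run therefore does not gauge power for the members. No p was adjusted over the members alone, and lists were described by counts and medians. The members and lists were chosen with earlier results of these data known. Named were all members, the measured related GTPases, 6 signalling genes, the lowest p-values of other lists and the 6 genes most like the members, with further genes marked in the text. Alternatives were the prior, filters on low values, scaling, probe set averaging, the replicate number as a block, array weights, and arrays left out. Figures were drawn with matplotlib 3.10.9.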

Additional observations from a re-analysis of the deposited data

How the results depend on the processing

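In none of the alternatives did a member pass an adjusted p of 0.05 in limma, nor at a threshold of 0.1, and member adjusted p-values ran from 0.108 to 0.992. All 8 members stayed negative in each alternative except without hBD-2 2, where Gbp2 was at 0.015 (range with single arrays left out -0.23 to 0.015). The median difference of the members ran from -0.24 without hBD-2 1 to -0.13 without hBD-2 2 with single arrays left out, and was -0.30 without the pair hBD-2 1 and 3, which moved it by over 1.5 times. The number of members without overlap was 2 to 4 with single arrays left out and 6 without that pair. The share of all genes without overlap was not counted in these settings, where smaller groups separate more easily. At an unadjusted p under 0.05 there were 2 members with arrays centred on their medians and without PBS 1, PBS 2 or PBS 3, 1 without hBD-2 2, 5 with the intensity trend and 6 without that pair, against 4 in the main setting.

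Over all genes, limma passed 91 with an intensity trend and robust prior, 16 and 47 with the lowest 25% and 50% of probe sets left out, 4 with quantile normalization repeated, 68 with array weights, 5 with all probe sets tested and 81 at a threshold of 0.1. It passed 0 to 11 with single arrays left out (0 without each PBS array, hBD-2 1 or hBD-2 3, with 1678 to 2771 at an unadjusted p under 0.05) and 0 without that pair (2503 unadjusted). With the replicate number as a block it passed 0 (2566 unadjusted), and the block changed no call of a member. The replicate numbers are not shown to pair the mice, since same-numbered arrays correlated in their deviations from the group means at -0.15, 0.14, 0.24 and 0.045. Genes whose small differences changed sign were Ifng at 0.022 with array weights, and with single arrays left out Ifng (-0.18 to 0.078), Jak2 (-0.016 to 0.024) and Irf1 (-0.081 to 0.00083). Without that pair, Jak2 was at -0.025, Ifngr1 at 0.073 and Hoxd13, a posterior body axis gene, at -0.085. Aif1 lost its call in 12 of 17 alternatives, among them each single array left out. Calls were gained in 16 cases: by Cd4, Mrc1, C1qa, Vim and Col3a1 with the intensity trend and under the 50% filter, by all of these but Cd4 with array weights, and by Mrc1 and Col3a1 without hBD-2 2 (adjusted p = 0.0497 by limma). The cause of these changes was not tested.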
